A study of Mus musculus with 117 samples.

Results

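The genes described here are the mouse zinc finger genes whose symbols run from Zfp900 to Zfp999, taken by name from the rows of an RNA-seq count table that stand for genes. RefSeq lists 62 such symbols, all protein coding, and 55 of them were among the 26301 genes of the table. The 7 others (Zfp972, Zfp978, Zfp981, Zfp984, Zfp988, Zfp990 and Zfp996) are not analysed here. The naming rule itself uses no measured value. For scale, 332 other genes of the table carry a symbol made of Zfp and a number.

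Most genes of this name range encode KRAB zinc finger proteins, in which an array of C2H2 zinc fingers binds DNA and a KRAB domain recruits Trim28 (also called KAP1), a scaffold for the histone methyltransferase Setdb1. In mouse ES cells this system silences endogenous retroviruses and other transposable elements, and the genes lie in clusters that grew by local duplication. SUMO is a small protein that is joined to other proteins, Trim28 among them, by a single E2 enzyme, Ubc9. Zfp932 is known in mouse ES cells as a repressor of endogenous retroviruses, and Zfp982 has been tied there to the upkeep of the undifferentiated state. For most of the other genes no role is given, since none is sure.

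RNA came from 10 groups, 28 libraries in all, made from total RNA after ribosomal RNA removal with a stranded kit. A hairpin against Ubc9 (shUbc9; its control is shCtrl) was used in 4 settings. These were passage 1 embryonic fibroblasts (MEF) from E13.5 embryos, MEF expressing the reprogramming factors OKSM for 4 days (D4) or 7 days (D7), and induced pluripotent cells derived from MEF (iPS). In ES cells of passages 15 to 20 the depletion was by a small interfering RNA (siUbc9, with siCtrl as control). There were 2 libraries of MEF shUbc9 and of iPS shCtrl and 3 of every other group. D4 and D7 cells carry OKSM in both arms, so the depletion comparisons there are between cells that are reprogramming. The labels name no mouse strain, no ES line and no promoter, and they do not say whether the libraries of a group came from separate cultures, so the spread between them may be technical.

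Gene counts summed to between 11.4 M and 58.8 M per library. Fibroblast markers (8 genes) summed to 50.7 to 64.1 CPM (reads counted per gene, scaled to library size) in ES siCtrl and 16434 to 20765 CPM in MEF shCtrl. Pluripotency markers (8 genes) summed to 2634 to 2952 CPM in ES siCtrl and 0.414 to 0.641 CPM in MEF shCtrl, where 2 of them had no count.

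The library labelled iPS shUbc9 replicate 2 stands apart, and it is the shallowest, with 11.4 M gene counts. Its Zfp900-series genes summed to 165 CPM, against 1478 and 1078 CPM in replicates 1 and 3. Of the 49 genes of the series with a mean of at least 1 CPM in replicates 1 and 3, 48 were lower in replicate 2 than in both. The median ratio of replicate 2 to the mean of replicates 1 and 3 was 0.123 for these genes, 0.444 for the other Zfp-numbered genes and 0.966 for all genes at that level. Results that use this library are given with and without it. It also enters any fit that shares one spread over all 28 libraries: such a fit called 0 genes of the series at D4, 2 at D7 and 2 in ES cells after Ubc9 depletion, and 19, 24 and 12 once it was left out, against 27, 25 and 32 in fits of the compared groups alone. The values given are from the fits of the compared groups alone.

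The sequences before the genes' starts are shown first, because some groups of neighbours with similar promoter sequence differ in level. The part of the sequence in these levels was not tested. All come from RefSeq windows on build GRCm38.p6, which hold 50 of the 55 genes (there is none for Zfp930, Zfp934, Zfp960, Zfp991 and Zfp992). Each is the gene's sense strand, 5′ to 3′, the 120 bases that end just before the start. Capitals mark the letters CCAAT or their complement ATTGG. The first set holds 4 neighbours on chromosome 4, of which Zfp979 had RNA in fibroblasts and the other 3 were near 0 there.
Zfp980: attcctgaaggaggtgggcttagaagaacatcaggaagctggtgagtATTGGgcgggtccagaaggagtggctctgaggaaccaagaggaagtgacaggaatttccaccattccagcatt
Zfp987: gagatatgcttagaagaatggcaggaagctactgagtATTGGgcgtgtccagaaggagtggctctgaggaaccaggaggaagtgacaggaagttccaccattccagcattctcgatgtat
Zfp985: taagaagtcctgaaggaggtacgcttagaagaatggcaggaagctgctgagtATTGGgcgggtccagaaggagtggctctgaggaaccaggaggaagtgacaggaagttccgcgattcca
Zfp979: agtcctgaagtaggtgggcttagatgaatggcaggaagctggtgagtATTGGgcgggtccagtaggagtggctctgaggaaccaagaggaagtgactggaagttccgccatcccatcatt
They lie at chr4:145670577-145670696 and chr4:146097192-146097311 and chr4:147553157-147553276 on the plus strand and at chr4:147642509-147642628 on the minus strand. Over the 250 bases before the start, aligned end to end, Zfp979 and Zfp980 were 88.6% identical, Zfp985 and Zfp987 83.4%, and the other pairs 78.1% to 80.8%. In each of the 4 an ATTGG runs into GGGCGG or into a near form of it, so the CCAAT and GC box letters overlap.

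The second set holds 3 neighbours on chromosome 7, with Zfp976 present in fibroblasts, Zfp977 low and Zfp936 near 0.
Zfp977: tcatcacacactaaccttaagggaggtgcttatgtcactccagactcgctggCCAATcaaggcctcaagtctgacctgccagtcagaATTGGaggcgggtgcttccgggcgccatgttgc
Zfp976: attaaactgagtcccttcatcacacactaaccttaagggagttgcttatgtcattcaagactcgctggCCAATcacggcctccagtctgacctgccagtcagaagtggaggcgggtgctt
Zfp936: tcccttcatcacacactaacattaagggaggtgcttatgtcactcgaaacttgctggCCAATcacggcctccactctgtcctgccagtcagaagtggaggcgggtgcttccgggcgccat
Zfp977 (chr7:42592546-42592665) and Zfp976 (chr7:42642605-42642724) are on the minus strand and Zfp936 (chr7:43177470-43177589) is on the plus strand. Zfp936 was 88.2% identical to Zfp977 and 83.6% to Zfp976 over 250 bases.

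The third set, a pair from chromosome 2, was 97.2% identical over 250 bases. Zfp971 was present in every group, and Zfp965 stayed near 0 in all of them. Whether reads matching several places were counted is not known, so the low level of Zfp965 is uncertain.
Zfp965: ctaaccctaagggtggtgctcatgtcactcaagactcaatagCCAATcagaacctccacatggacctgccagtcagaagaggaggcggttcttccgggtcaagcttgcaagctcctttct
Zfp971: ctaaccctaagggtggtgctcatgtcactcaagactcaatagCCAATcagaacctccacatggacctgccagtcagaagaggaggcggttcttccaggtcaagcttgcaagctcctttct
They lie at chr2:175469905-175470024 and chr2:178023164-178023283, both on the plus strand. The last pair are the called genes with the largest rises after Ubc9 depletion in ES cells, neighbours on chromosome 17 at chr17:22225615-22225734 and chr17:22165978-22166097 on the minus strand, 40.3% identical over 250 bases.
Zfp994: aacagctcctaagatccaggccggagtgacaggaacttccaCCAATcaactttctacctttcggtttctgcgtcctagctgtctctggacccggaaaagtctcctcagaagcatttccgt
Zfp947: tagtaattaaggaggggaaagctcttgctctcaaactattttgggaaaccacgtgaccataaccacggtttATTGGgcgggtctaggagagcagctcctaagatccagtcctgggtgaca
Zfp942 and Zfp943, also on chromosome 17, start back to back. The 94 bases between their starts (chr17:21962465-21962558, plus strand) hold no CCAAT, and these genes differ in opposite directions between ES cells and fibroblasts.
Zfp942 to Zfp943: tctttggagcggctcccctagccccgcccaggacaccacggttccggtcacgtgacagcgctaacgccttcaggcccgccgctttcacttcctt

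CCAAT, searched as those letters on both strands of the 300-base window (250 before the start and 50 after it), was present in 37 of the 50 windows, or 74%, against 37.9% of 27025 RefSeq windows. TATAAA was in 0 of 50 windows (14.2% of all), CCGGAAG, the core of ETS family sites, in 26% (9.12% of all), and GGGCGG, the Sp1 GC box, in 32% (35.9% of all). CACGTG was in 14% of the windows (7.24% of all), ATTTGCAT in 2% (1.75%), AAGATGGC in 2% (2.88%) and the palindromic NRF1 motif in 0% (0.977%). The median ratio of observed to expected CpG was 0.41 for the series and 0.39 for all windows. Of 60 CCAAT matches, 42 began within the 120 bases before the start. Related neighbours share much of this sequence, so the windows are not independent, and a match of letters is not a measured binding site.

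**Figure D1:**
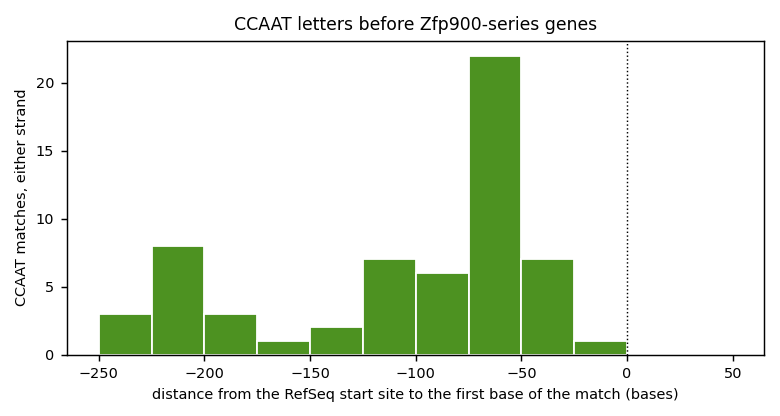
Distance in bases (horizontal axis) from the RefSeq start site, at 0, to the first base of each CCAAT match on either strand, counted in 25-base steps (vertical axis, number of matches) over the windows of 50 Zfp900-series genes. Most of the 60 matches lie upstream and close to the start, 42 of them within 120 bases of it.

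Levels are given in CPM on one scale over all 28 libraries (library sizes adjusted by TMM, the trimmed mean of M values). CPM is not corrected for gene length, so it is compared only between groups for one gene. The fits scale the libraries of the compared groups alone, so a log2 fold change can differ somewhat from the ratio of these levels. Of the 55 genes, 44 had a mean of at least 1 CPM in all 10 groups. Zfp957, Zfp965, Zfp966, Zfp967 and Zfp968 reached 1 CPM in no group. Zfp936, Zfp973, Zfp977, Zfp980, Zfp985 and Zfp987 reached it in some groups. Summed over the series, the level was 3309 to 3433 CPM in ES siUbc9 and 2802 to 3275 CPM in ES siCtrl. The same sum was 914 and 1240 CPM in iPS shCtrl, 493 to 521 CPM in D7 shCtrl, 515 to 550 CPM in D4 shCtrl and 532 to 574 CPM in MEF shCtrl. Among the 5 control groups, 39 genes had their highest mean in ES siCtrl, 7 in MEF shCtrl and 3 in iPS shCtrl. This is out of all 55 genes, the 5 that reached 1 CPM in no group included, so some of these rest on few reads. In bulk RNA, fewer cells with a transcript and less of it per cell cannot be told apart.

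**Figure D2:**
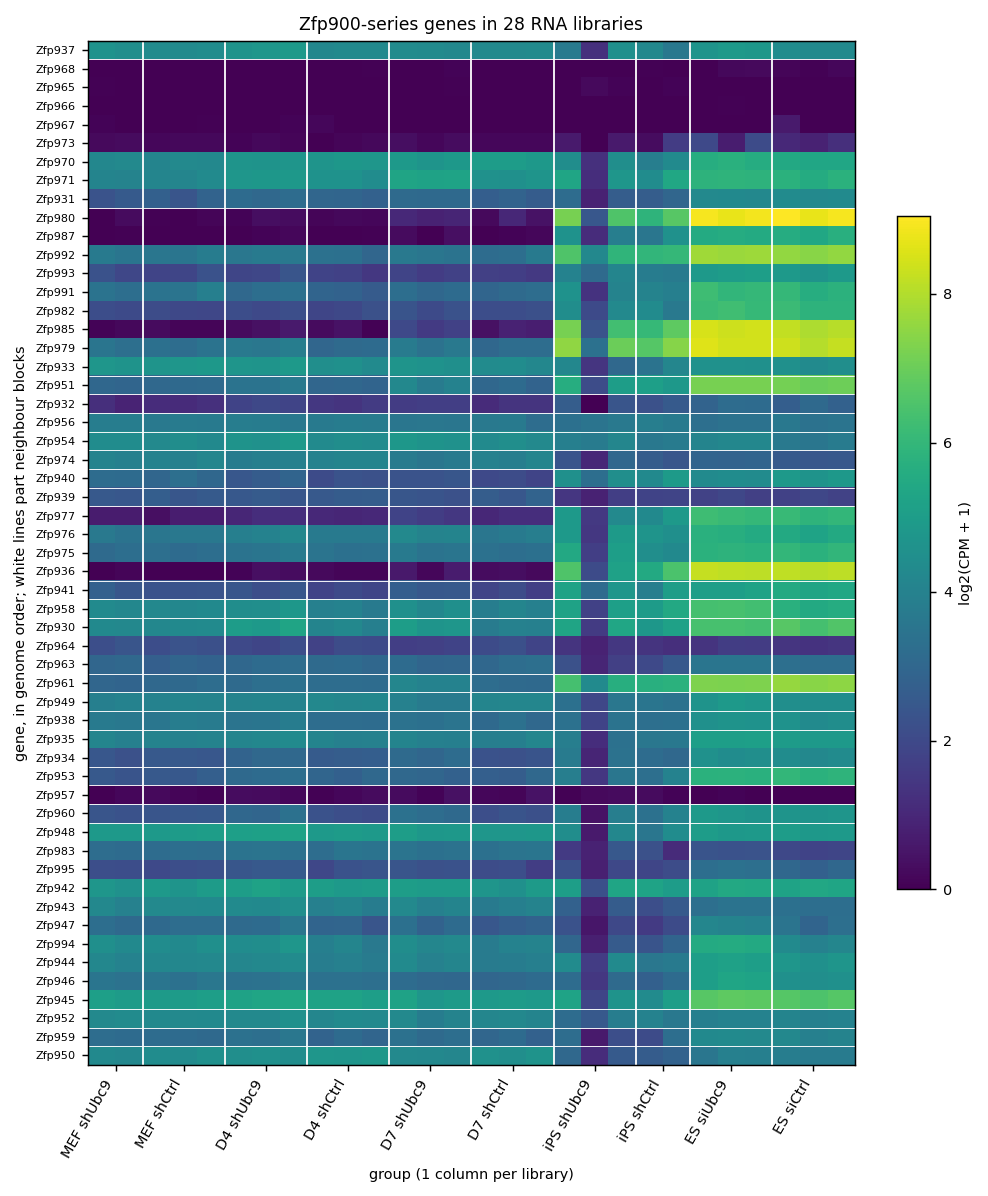
Level of each Zfp900-series gene (rows, in genome order) in each of the 28 libraries (columns, by group), as log2(CPM + 1); white horizontal lines part groups of neighbouring genes and white vertical lines part sample groups. The ES columns are brightest, and the dark second column of iPS shUbc9 is replicate 2, whose genes sum to 165 CPM.

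The comparison of ES cells with fibroblasts shows where the series differs most between cell states. These controls also differ in reagent, a hairpin in MEF and a small interfering RNA in ES cells. Reagent and cell state cannot be told apart. Differences were tested per gene with edgeR's quasi-likelihood test on the counts, and a gene was called at an adjusted p (Benjamini-Hochberg over all genes tested) under 0.05. Of the 50 genes of the series that passed the filter on low counts, 36 were higher in ES siCtrl than in MEF shCtrl and 9 were lower, so 90% were called, against 90.5% of all 18149 genes tested. The share called is that of the background. The direction was uneven: 72% of the genes tested were higher in ES cells and 18% lower, against 47.7% and 42.8% of all genes, and the median log2 fold change was 1.54, against 0.13 for all genes. Among the 36, Zfp936, Zfp973, Zfp980, Zfp985 and Zfp987 passed the filter through the ES libraries alone, so they had to be higher. No share or median without them was computed.

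Zfp980 had 526, 423 and 478 CPM in ES siCtrl and 0.0276, 0.02 and 0.0977 CPM in MEF shCtrl. Its groups were far apart, and the 3 MEF libraries held 6 reads of it together. Zfp936 had 291, 267 and 279 CPM in ES siCtrl and no read in any MEF shCtrl library. Taken against a floor of 3 counts over the MEF group, it was at least 11826-fold higher in ES cells. Zfp985 had 296, 241 and 271 CPM in ES siCtrl and 0.193, 0.1 and 0.0977 CPM in MEF shCtrl. Zfp987 had 46.9, 40.6 and 51.2 CPM in ES siCtrl and 1 read in the 3 MEF shCtrl libraries together. These 4 passed the filter through the ES libraries alone, so they had to differ, and their levels are given as a description with no test. In each of them every ES library was far above every MEF library.

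Other genes that were higher in ES cells started from a measurable fibroblast level. Zfp977 had 67.8, 58.1 and 62.9 CPM in ES siCtrl and 0.304, 0.641 and 0.66 CPM in MEF shCtrl. Zfp979 had 324, 259 and 300 CPM in ES siCtrl and 9.17, 8.33 and 9.89 CPM in MEF shCtrl, a log2 fold change of 5.05 ± 0.11 (SE). Zfp961 had 193, 172 and 182 CPM in ES siCtrl and 7.32, 7.45 and 8.5 CPM in MEF shCtrl, a log2 fold change of 4.60 ± 0.08. The groups did not overlap for any of these. Zfp982, tied to the undifferentiated state in mouse ES cells, had 70.7, 55.9 and 56.7 CPM in ES siCtrl and 3.34, 2.86 and 2.83 CPM in MEF shCtrl (log2 fold change 4.39 ± 0.12). Zfp951 (4.18 ± 0.07) and Zfp992 (4.07 ± 0.09) complete the 10 largest rises by log2 fold change. The 5 of these with a fold and SE given had adjusted p-values of at most 2.23e-11 in edgeR. Zfp932, the repressor of endogenous retroviruses, was higher by a log2 fold change of 2.37 ± 0.16, with 5.48, 7.43 and 5.97 CPM in ES siCtrl and 1.22, 1.14 and 1.39 CPM in MEF shCtrl.

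The 9 genes that were lower in ES cells changed less. Zfp974 had 4.93, 4.5 and 4.56 CPM in ES siCtrl and 15.1, 14.5 and 16.6 CPM in MEF shCtrl, a log2 fold change of -1.68 ± 0.09 (adjusted p 1.06e-08, edgeR). Zfp983 had 2.93, 2.56 and 2.68 CPM in ES siCtrl and 8.1, 8.71 and 8.4 CPM in MEF shCtrl (-1.58 ± 0.10). Both were lower in every ES library than in any MEF library. Zfp964 (-1.16), Zfp939 (-0.91), Zfp954 (-0.68) and Zfp950 (-0.66) followed on the log2 scale, then Zfp933 (-0.27) and Zfp952 (-0.25). Zfp943 was the other. Zfp942, back to back with Zfp943, went the other way from it, with 37.3, 42.2 and 38.7 CPM in ES siCtrl and 28.8, 24.4 and 30 CPM in MEF shCtrl (log2 fold change 0.55 ± 0.09). Zfp943 had 9.15, 8.59 and 8.59 CPM in ES siCtrl and 18, 17.9 and 18.5 CPM in MEF shCtrl. No source at hand gives the strand setting of the counting, so reads in any overlap of the pair cannot be assigned to one of them.

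The iPS libraries held a lower level of the series than ES cells. Of 50 genes tested, 38 were lower in iPS shCtrl than in ES siCtrl and 0 were higher, so 76% were called, against 53.3% of all genes. Among all 18108 genes tested the directions were near even, with 27.3% higher and 26% lower in iPS shCtrl. The median log2 fold change was -1.23 for the series, -0.42 for the other Zfp-numbered genes and -0.01 for all genes. Zfp980 had 57.5 and 103 CPM in iPS shCtrl and 526, 423 and 478 CPM in ES siCtrl, a log2 fold change of -2.64 ± 0.25 (adjusted p 0.000456, edgeR). Zfp953 had 8.83 and 15.1 CPM in iPS shCtrl and 62, 53.8 and 57.3 CPM in ES siCtrl (-2.34 ± 0.23). Zfp951 had 33.7 and 27.2 CPM in iPS shCtrl and 141, 125 and 132 CPM in ES siCtrl (-2.19 ± 0.15). All 3 were lower in both iPS libraries than in any ES library. Zfp940 (-0.21 ± 0.20), Zfp954 (-0.04 ± 0.15) and Zfp974 (-0.02 ± 0.20) were among the 12 genes not called. Fibroblast markers summed to 266 and 625 CPM in iPS shCtrl and 50.7 to 64.1 CPM in ES siCtrl. Pluripotency markers summed to 2402 and 3205 CPM in iPS shCtrl and 2634 to 2952 CPM in ES siCtrl. These sums hide opposite changes: of the 8, 4 were higher and 2 lower in iPS shCtrl (75% called, against 53.3% of all genes). Their log2 fold changes ranged from -2.09 to 1.24. The part of either in the result was not tested, and how the iPS and ES cells were grown is not compared here. The iPS controls carry a hairpin and the ES controls a small interfering RNA, which cannot be told apart from the cell type.

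In the first days of reprogramming genes of the series moved both ways. Between D4 shCtrl and MEF shCtrl, 7 of 45 genes tested rose and 15 fell (48.9% called, against 66.7% of all genes, of which 33.3% rose and 33.5% fell), with a median log2 fold change of -0.01. This split depends on the scaling: with library sizes alone 12 rose and 10 fell. Zfp940 fell most, to 3.22, 3.93 and 3.76 CPM in D4 shCtrl, against 6.91, 8.81 and 7.16 CPM in MEF shCtrl (log2 fold change -1.07 ± 0.12, adjusted p 4.23e-05, edgeR). Zfp991 (-0.94 ± 0.15) and Zfp938 (-0.58 ± 0.09) also fell. Zfp977 (0.89 ± 0.26) and Zfp970 (0.57 ± 0.07) rose. Between D7 shCtrl and D4 shCtrl, 3 of 46 genes tested were called (6.52%, against 18.2% of all genes and 7.65% for falls), all lower at D7: Zfp934 (-0.44 ± 0.10), Zfp946 (-0.32 ± 0.09) and Zfp945 (-0.25 ± 0.07). That count was 0 without any 1 of the 3 D4 shCtrl libraries. Without D7 shCtrl replicate 1 it was 1, a rise with 0 falls, and without replicate 2 it was 1, a fall.

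Several of the genes with the largest differences between ES cells and fibroblasts were also higher in iPS cells than at D7. Of 49 genes tested, 22 were higher in iPS shCtrl than in D7 shCtrl and 13 lower (71.4% called, against 73.8% of all genes), with a median log2 fold change of 0.25 against -0.03. Zfp980 had 57.5 and 103 CPM in iPS shCtrl and 0.186, 0.989 and 0.353 CPM in D7 shCtrl. Zfp936 had 44.4 and 89.2 CPM in iPS shCtrl and 0.233, 0.27 and 0.176 CPM in D7 shCtrl. Zfp987 had 10.8 and 22.6 CPM in iPS shCtrl and 5 reads in D7 shCtrl as a group. Zfp936 and Zfp987 reached the filter's level in the iPS libraries and not at D7, so they had to be higher. Both count among the 22. No test is given for Zfp936, Zfp980 or Zfp987, and no share or median without Zfp936 and Zfp987 was computed. Zfp979 had 99.9 and 169 CPM in iPS shCtrl and 7.08, 8.37 and 8.35 CPM in D7 shCtrl (log2 fold change 4.07 ± 0.24, adjusted p 1.32e-05, edgeR). The groups were far apart for all of these. Zfp983 (-2.04 ± 0.47), Zfp950 (-2.01 ± 0.18), Zfp943 (-1.70 ± 0.23) and Zfp974 (-1.62 ± 0.21) were the largest falls, and all 4 were also lower in ES cells than in fibroblasts.

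**Figure D3:**
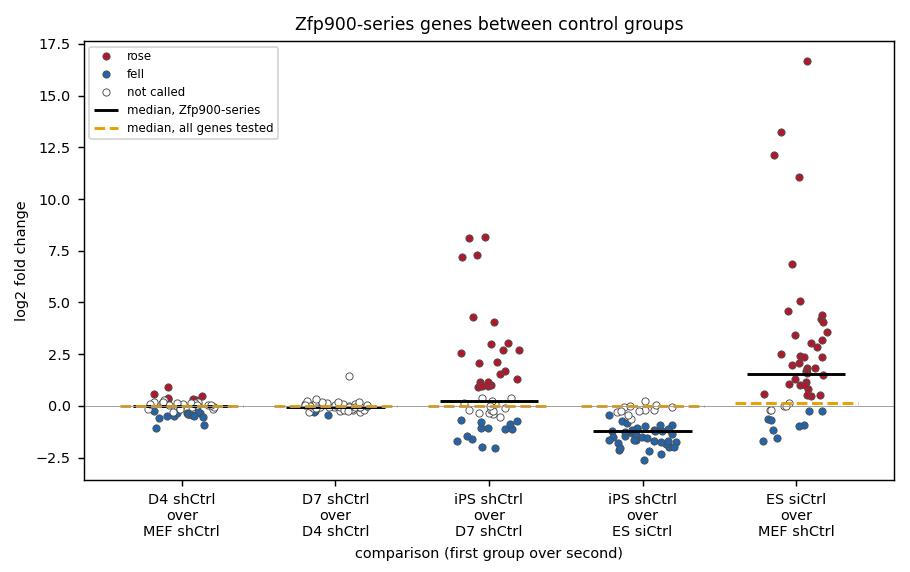
Log2 fold change (vertical axis) of each Zfp900-series gene tested in 5 comparisons between control groups (horizontal axis, first group over second); red and blue points passed an adjusted p of 0.05 in edgeR, open points did not, black bars are the medians of the series and dashed bars those of all genes tested. The median of the series is 1.54 for ES over MEF and -1.23 for iPS over ES, while that of all genes lies near 0. For ES over MEF, Zfp936, Zfp973, Zfp980, Zfp985 and Zfp987 passed the filter through the ES libraries alone and had to be higher. For iPS over D7, Zfp936 and Zfp987 passed it through the iPS libraries alone and had to be higher. The medians and red points include them.

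Ubc9 depletion raised more of the series than it lowered in D4, D7 and ES cells. In ES cells 29 of 50 genes tested rose in siUbc9 and 3 fell, so 64% were called, against 39.1% of all 17859 genes tested, and 58% rose, against 21.3% of all genes. Among the other Zfp-numbered genes 46.7% were called. The median log2 fold change was 0.25, against 0.01 for all genes, and 1 gene rose by 2-fold or more.

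That gene was Zfp994. It had 45.2, 46 and 44 CPM in ES siUbc9 and 18.9, 14.8 and 16.9 CPM in ES siCtrl, a log2 fold change of 1.51 ± 0.07 (SE; adjusted p 9.77e-07, edgeR). Zfp947 had 16.6, 15.5 and 14.9 CPM in ES siUbc9 and 10.2, 6.61 and 8.89 CPM in ES siCtrl (0.95 ± 0.13, adjusted p 0.000468, edgeR). Zfp958 had 83, 84.4 and 78.1 CPM in ES siUbc9 and 52.7, 44.4 and 47.8 CPM in ES siCtrl (0.85 ± 0.06). In each of these, every depleted library was above every control library. Zfp946 had 32.8, 38.4 and 37.1 CPM in ES siUbc9 and 22.3, 21.3 and 22.4 CPM in ES siCtrl (0.81 ± 0.05). Zfp954 (0.62 ± 0.07), Zfp983 (0.62 ± 0.11), Zfp937 (0.57 ± 0.05), Zfp974 (0.56 ± 0.08), Zfp944 (0.55 ± 0.06) and Zfp995 (0.51 ± 0.09) complete the 10 largest rises without overlap between the groups.

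Genes with a high level in ES cells were called in part. Zfp980 stood at 484, 428 and 472 CPM in ES siUbc9 and 526, 423 and 478 CPM in ES siCtrl, with overlapping groups (log2 fold change 0.05 ± 0.09, adjusted p 0.689, edgeR). Its mean level was 462 CPM in ES siUbc9 and 476 CPM in ES siCtrl, and levels and folds are scaled separately. Zfp936 stood at 305, 286 and 279 CPM in ES siUbc9 and 291, 267 and 279 CPM in ES siCtrl (adjusted p 0.0915, edgeR). Zfp979 had 383, 341 and 342 CPM in ES siUbc9 and 324, 259 and 300 CPM in ES siCtrl, a called rise of 0.36 ± 0.09, and Zfp985 rose by 0.44 ± 0.07 on the log2 scale. Zfp982 had 69.8, 75.3 and 64.8 CPM in ES siUbc9 and 70.7, 55.9 and 56.7 CPM in ES siCtrl (a called rise of 0.28 ± 0.09, though the groups overlap). Zfp932 did not pass the test there (0.36 ± 0.14, adjusted p 0.0642, edgeR).

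The 3 falls in ES cells were small. Their number was 2 with library sizes alone, 1 in DESeq2, another test on the counts, and 1 to 4 with 1 library left out. Zfp940 had 19.1, 20.1 and 19.8 CPM in ES siUbc9 and 28.6, 23.9 and 27.1 CPM in ES siCtrl (-0.34 ± 0.06, adjusted p 0.0022, edgeR). Zfp941 had 32.4, 32.9 and 36.2 CPM in ES siUbc9 and 44.4, 38 and 40.7 CPM in ES siCtrl (-0.19 ± 0.06), and Zfp961 fell by 0.15 on the log2 scale. Markers of the 2-cell-like state, a rare state of ES cultures, moved in the same libraries. Of 5 such genes, 4 were tested and all 4 rose, and their sum was 355 to 378 CPM in ES siUbc9 and 37.6 to 43.5 CPM in ES siCtrl, with 1 marker at 0 in both. Pluripotency markers summed to 2240 to 2525 CPM in ES siUbc9 and 2634 to 2952 CPM in ES siCtrl, and 4 of 8 fell. Whether either has a part in the rise of the zinc finger genes was not tested.

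At D4, 25 of 46 genes tested rose in shUbc9 and 2 fell, so 58.7% were called, against 53.2% of all 17001 genes. That share is close to the background, but 54.3% rose, against 27.2% of all genes, and the median log2 fold change was 0.32, against -0.01. Zfp960 had 7.19, 6.66 and 9.25 CPM in D4 shUbc9 and 3.86, 3.55 and 3.22 CPM in D4 shCtrl, a log2 fold change of 1.12 ± 0.14 (adjusted p 0.000225, edgeR). Zfp930 had 30.7, 29 and 37.7 CPM in D4 shUbc9 and 16.1, 17.5 and 13.8 CPM in D4 shCtrl (1.03 ± 0.12, adjusted p 0.00011, edgeR). These were the 2 rises past 2-fold, with no overlap between the groups. Zfp958 (0.70 ± 0.12), Zfp994 (0.67 ± 0.14), Zfp979 (0.66 ± 0.10), Zfp932 (0.62 ± 0.14), Zfp951 (0.61 ± 0.10), Zfp947 (0.59 ± 0.18), Zfp940 (0.55 ± 0.15) and Zfp993 (0.54 ± 0.20) followed. Zfp950 (-0.28 ± 0.07) and Zfp974 (-0.21 ± 0.08) fell. With library sizes alone the split at D4 was 28 rises and 0 falls, and that scaling puts the median of all genes at 0.07. DESeq2 called 1 fall, as did each fit with 1 library left out. Zfp932, the repressor of endogenous retroviruses, stood at 2.55, 2.87 and 2.64 CPM in D4 shUbc9 and 1.76, 1.57 and 1.96 CPM in D4 shCtrl.

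At D7, 20 of 47 genes tested rose in shUbc9 and 5 fell, so 53.2% were called, against 53.6% of all 17207 genes, while 42.6% rose, against 27.3% of all genes. The median log2 fold change was 0.26, against 0.01. With library sizes alone the split was 29 rises and 0 falls; that scaling puts the median of all genes at 0.21. The count of 25 genes fell to 10 without D7 shCtrl replicate 1 and to 13 without D7 shUbc9 replicate 3. Zfp960 had 9.26, 8.41 and 7.44 CPM in D7 shUbc9 and 3.47, 4.14 and 3.64 CPM in D7 shCtrl (1.16 ± 0.13, adjusted p 0.000132, edgeR). Zfp951 had 17.8, 12.4 and 15.1 CPM in D7 shUbc9 and 7.12, 7.92 and 6.35 CPM in D7 shCtrl (1.08 ± 0.15). Zfp961 had 16.8, 15.2 and 15.2 CPM in D7 shUbc9 and 8.33, 7.83 and 7.58 CPM in D7 shCtrl (0.99 ± 0.10, adjusted p 5.95e-05, edgeR). All of these had depleted libraries above every control library. Zfp930 (0.99 ± 0.12), Zfp934 (0.98 ± 0.12), Zfp941 (0.87 ± 0.17), Zfp977 (0.86 ± 0.20), Zfp971 (0.67 ± 0.08) and Zfp932 (0.59 ± 0.18) also rose.

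Zfp985 had the largest fold change at D7, on low levels. It had 2.99, 1.91 and 2.38 CPM in D7 shUbc9 and 0.326, 0.81 and 0.705 CPM in D7 shCtrl, a log2 fold change of 2.05 ± 0.32 (adjusted p 0.000849, edgeR), on 295 reads in D7 shUbc9 and 53 in D7 shCtrl. Its ES level was above 240 CPM in every control library. Zfp980, its neighbour, had 1.04, 0.838 and 0.901 CPM in D7 shUbc9 and 0.186, 0.989 and 0.353 CPM in D7 shCtrl and was not called (0.86 ± 0.48, adjusted p 0.163, edgeR). Among the falls, Zfp964 (-0.44 ± 0.16), Zfp939 (-0.41 ± 0.15), Zfp950 (-0.37 ± 0.09), Zfp949 (-0.33 ± 0.09) and Zfp974 (-0.32 ± 0.11) stayed under 1.5-fold.

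Markers of cell state moved with depletion in these same cells. At D7 the 8 fibroblast markers summed to 9469 to 12373 CPM in shUbc9 and 22500 to 33989 CPM in shCtrl, the 8 pluripotency markers to 59.5 to 69.9 CPM in shUbc9 and 5.47 to 20.8 CPM in shCtrl, and the 6 epithelial markers to 813 to 886 CPM in shUbc9 and 210 to 287 CPM in shCtrl. At D4 the fibroblast markers summed to 10937 to 12243 CPM in shUbc9 and 17275 to 25598 CPM in shCtrl, and all 8 fell. Macrophage markers (6 genes) summed to 74.3 to 76.6 CPM in D4 shUbc9 and 45.6 to 46.1 CPM in D4 shCtrl, and all 6 rose. Their part in the response of the zinc finger genes was not tested. Of the 20 genes that rose at D7, 16 (80%) were also higher in ES siCtrl than in MEF shCtrl, against 70.2% of the 47 tested in both, and of the 5 that fell, 4 were lower in ES cells. Of the 25 that rose at D4, 18 (72%) were higher in ES cells, against 69.6% of the 46 tested in both. Zfp985, in the 16, the 70.2% and the 69.6%, passed the ES and MEF filter through the ES libraries alone and had to be higher there. The same holds for Zfp980, which is in the 70.2%. No share without them was computed. Among all genes that rose at D7, 68.1% were higher in ES cells, against 43.6% of all genes tested in both. Among all genes that fell at D7, 74.3% were lower in ES cells. For all genes that rose at D4, 57.1% were higher in ES cells, against 43% of all genes tested in both.

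**Figure D4:**
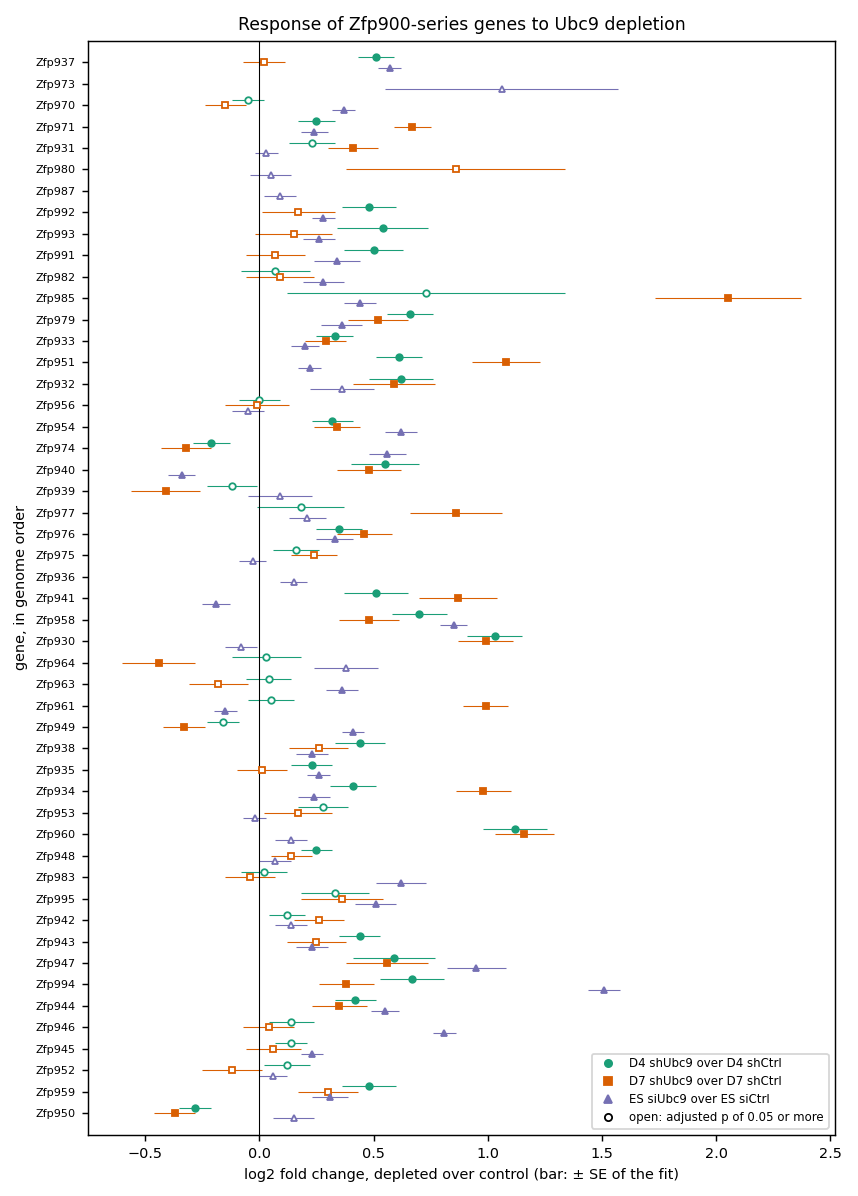
Log2 fold change of depleted over control cells (horizontal axis, with the SE of the edgeR fit as bars) for each Zfp900-series gene tested (rows, in genome order) at D4 (circles), at D7 (squares) and in ES cells (triangles); filled symbols passed an adjusted p of 0.05. Most filled symbols lie right of 0; Zfp994 is the filled symbol farthest right in ES cells (1.51), and Zfp985 the one farthest right at D7 (2.05).

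In fibroblasts without OKSM no gene of the series was called. Of 45 tested, 0 passed (6.04% of all 16287 genes did, 3.83% upward and 2.21% downward), 3 had an unadjusted p under 0.05 in edgeR and 2 in DESeq2, which also called 0. Without MEF shCtrl replicate 2 there were 2 falls, and with the replicate number as a block 3 falls. The median log2 fold change was -0.05, and single genes ranged between -0.30 and 0.37. Zfp994 had 21.7 and 18.7 CPM in MEF shUbc9 and 20.1, 18.8 and 21.6 CPM in MEF shCtrl, and Zfp960 had 4.2 and 3.83 CPM in MEF shUbc9 and 4.23, 4.45 and 4.67 CPM in MEF shCtrl. Macrophage markers summed to 108 to 113 CPM in MEF shUbc9 and 56.9 to 76.8 CPM in MEF shCtrl.

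Between the libraries labelled iPS shUbc9 and iPS shCtrl, 0 of 50 genes tested were called, as were 0 (0%) of all 17294 genes, and none of the 50 had an unadjusted p under 0.05 in edgeR or in DESeq2, which called 0 of the series and 10 genes in all. The median log2 fold change was -0.29 and 6 genes were above 0. Without replicate 2 of the libraries labelled iPS shUbc9 the median was 0.16, 37 of the 50 were above 0, and again none was called. The direction therefore rests on that library. Zfp980 had 145, 4.53 and 93.6 CPM in replicates 1, 2 and 3 labelled iPS shUbc9 and 57.5 and 103 CPM in iPS shCtrl. Zfp992 had 92.1, 17.6 and 58.7 CPM in the libraries labelled iPS shUbc9 and 61.2 and 63.8 CPM in iPS shCtrl. Zfp956 was the exception in replicate 2, with 9.1, 10.1 and 11.5 CPM in the libraries labelled iPS shUbc9 and 13.6 and 12.3 CPM in iPS shCtrl.

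The responses were then compared with each other by testing the difference between depletion effects. Between the ES and MEF responses, 18 of 50 genes differed (36%, against 20.6% of all genes), 16 with the higher response in ES cells. For Zfp994 the difference was 1.49 ± 0.12 on the log2 scale (adjusted p 2.42e-07, edgeR), for Zfp947 0.93 ± 0.19, for Zfp958 0.84 ± 0.10 and for Zfp946 0.83 ± 0.11. Zfp941 (-0.58 ± 0.14) and Zfp940 (-0.43 ± 0.14) had the lower response in ES cells. The count was 10 without MEF shUbc9 replicate 3. The 2 states were depleted by different reagents, which cannot be told apart from the cell type.

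Between D7 and D4, 4 of 48 genes differed (8.33%, against 12.3% of all genes, 6.04% with the higher and 6.24% with the lower response at D7). Zfp961 rose at D7 and was not called at D4 (0.05 ± 0.10 at D4), and the difference was 0.95 ± 0.12 (adjusted p 0.000356, edgeR). Zfp934 (0.59 ± 0.15) and Zfp971 (0.44 ± 0.10) also responded more at D7, and Zfp937 (-0.48 ± 0.11) less; with library sizes alone the split was 3 and 0. The D4 and D7 comparisons share no library. Of the 25 genes that rose at D4, 16 (64%) rose at D7, which is 80% of the 20 that rose at D7. Among all genes the same shares were 66.5% and 65.5%. The 2 that fell at D4, Zfp950 and Zfp974, fell at D7 too, but with library sizes alone 0 genes fell on either day. In all, 11 genes rose at D4, at D7 and in ES cells: Zfp933, Zfp934, Zfp944, Zfp947, Zfp951, Zfp954, Zfp958, Zfp971, Zfp976, Zfp979 and Zfp994. The 11 are 23.9% of the 46 genes of the series tested in all 3 settings, against 3.91% of all genes tested in all 3. Another 14 were called in none of the 3, but 9 of these were left untested in at least 1 setting: Zfp957, Zfp965, Zfp966, Zfp967 and Zfp968 in all 3, Zfp936, Zfp973 and Zfp987 at D4 and D7, and Zfp980 at D4. The 5 others, tested in each, were Zfp942, Zfp952, Zfp953, Zfp956 and Zfp975 (10.9% of the 46, against 21.4% of all genes).

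Between ES cells and D7 the responses differed in both directions, and here too the reagent cannot be told apart from the cell state. Of 50 genes tested 22 differed (44%, against 44.3% of all genes), 10 with the higher response in ES cells and 12 with the lower; with library sizes alone the split was 6 and 16. Zfp974 and Zfp949 rose in ES cells and fell at D7, with differences of 0.81 ± 0.14 and 0.67 ± 0.11. Zfp940, Zfp941 and Zfp961 fell in ES cells and rose at D7, with differences of -0.89 ± 0.14, -1.11 ± 0.17 and -1.20 ± 0.10 (adjusted p 2.27e-07, edgeR). These falls depend on the processing: DESeq2 called 1 fall in ES cells, and with library sizes alone 0 genes fell at D7. Zfp930 had 84.7, 84.7 and 79.5 CPM in ES siUbc9 and 103, 82.9 and 94.7 CPM in ES siCtrl, but 32.1, 24.9 and 25.8 CPM in D7 shUbc9 and 12.6, 14.9 and 14.4 CPM in D7 shCtrl, a difference between responses of -1.14 ± 0.15 (adjusted p 2.57e-05, edgeR). Zfp960 (-1.07 ± 0.15) and Zfp951 (-0.92 ± 0.15) followed it.

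Neighbouring genes shared parts of these patterns. Counting as one block genes of the series with at most 30 other genes between them, a limit set after their values were seen, 36 of the 55 fall into 6 blocks. The block from Zfp980 to Zfp933 on chromosome 4 holds 9 genes (Zfp980, Zfp987, Zfp992, Zfp993, Zfp991, Zfp982, Zfp985, Zfp979 and Zfp933), and a deletion of this mouse cluster is known for its effect on transposable elements. Of the 9, 8 were higher in ES siCtrl than in MEF shCtrl (47.7% of all genes were) and 1, Zfp933, was lower. The block median log2 fold change was 4.39. Zfp980, Zfp985 and Zfp987, counted among the 8, passed the filter through the ES libraries alone and so had to be higher. All 9 were lower in iPS shCtrl than in ES siCtrl (26% of all genes were). Zfp992 had 189, 173 and 189 CPM in ES siCtrl and 10.7, 10.3 and 12.8 CPM in MEF shCtrl, and Zfp991 had 63.8, 49.1 and 54.6 CPM in ES siCtrl and 9.84, 10.1 and 13.8 CPM in MEF shCtrl. Zfp933, the block's last gene, had 22.2, 19.2 and 21.4 CPM in ES siCtrl and 24.5, 26.1 and 27.4 CPM in MEF shCtrl. Under Ubc9 depletion 5 of the 7 tested rose at D4 (27.2% of all genes did), 3 of 8 at D7 (27.3% of all genes) and 7 of 9 in ES cells (21.3% of all genes).

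**Figure D5:**
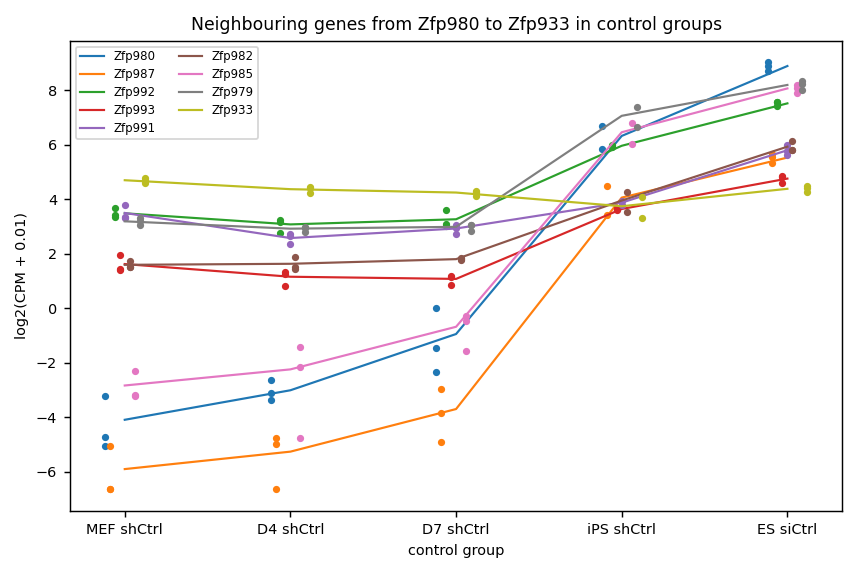
Levels as log2(CPM + 0.01) (vertical axis) of the 9 neighbours from Zfp980 to Zfp933 in the 5 control groups (horizontal axis); points are libraries and lines join the group means. Zfp980, Zfp985 and Zfp987 lie below 1 CPM in every control library of MEF, D4 and D7, and all but Zfp933 have their highest mean in ES cells.

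The 4 genes from Zfp977 to Zfp936 on chromosome 7 were all higher in ES siCtrl than in MEF shCtrl (47.7% of all genes were). Of these, Zfp936 passed the filter through the ES libraries alone and so had to be higher. All 4 were lower in iPS shCtrl than in ES siCtrl (26% of all genes were). The printed sequences of Zfp976 and Zfp936 are alike, but their ranges differ. Zfp976 had 43.9, 37.2 and 43.6 CPM in ES siCtrl and 10.7, 11.2 and 11.3 CPM in MEF shCtrl, where Zfp936 had no read. On chromosome 2 the block from Zfp968 to Zfp931 holds 8 genes. Zfp970, Zfp971 and Zfp931 were higher in ES cells. Zfp973 passed the filter through the ES libraries alone, so it had to be higher and no test is given. It had 1.08, 0.819 and 1.31 CPM in ES siCtrl and 0.111, 0.14 and 0.147 CPM in MEF shCtrl. Zfp965, Zfp966, Zfp967 and Zfp968 had under 1 CPM in every library. The 250 bases before Zfp966 and Zfp967 are identical, and those before Zfp968 and Zfp973 are 99.6% identical. No source at hand says whether reads matching several places were counted, so the low levels of these near copies are uncertain.

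The 10 genes from Zfp948 to Zfp945 on chromosome 17 are described by the same counts. Between ES siCtrl and MEF shCtrl 5 were higher and 2 lower (47.7% and 42.8% of all genes were), with a block median log2 fold change of 0.33. In ES cells, 8 of the 10 rose on Ubc9 depletion (21.3% of all genes did), with a block median of 0.53, and 7 of the 10 had a higher response in ES cells than in MEF (10.3% of all genes). Zfp994, Zfp947, Zfp946, Zfp944, Zfp983 and Zfp995, all among the 10 largest ES rises, lie in this block. The printed sequences of Zfp994 and Zfp947 share a run of 17 bases, at different distances from the start. Zfp942 and Zfp948 were the block's genes not called in ES cells, with 0.14 ± 0.07 and 0.07 ± 0.07.

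A list of 37 genes of the KRAB zinc finger corepressor pathway was read beside the series. It also holds Zfp57, itself a KRAB zinc finger gene. Trim28 had 1689, 1702 and 1687 CPM in ES siCtrl and 327, 340 and 329 CPM in MEF shCtrl, and Setdb1 had 226, 226 and 222 CPM in ES siCtrl and 77.5, 81.7 and 78.4 CPM in MEF shCtrl. Of the list, 32 were higher and 4 lower in ES siCtrl than in MEF shCtrl (86.5% and 10.8%, against 47.7% and 42.8% of all genes). Under depletion 3 rose and 10 fell in ES cells (35.1% called, against 39.1% of all genes), 7 rose and 11 fell at D4 (48.6%, against 53.2%), 8 rose and 8 fell at D7 (43.2%, against 53.6%), and 0 were called in MEF, where 6 had an unadjusted p under 0.05. Atf7ip, a partner that stabilises Setdb1, rose to 294, 320 and 322 CPM in ES siUbc9, against 129, 168 and 147 CPM in ES siCtrl (1.16 ± 0.10, adjusted p 1.98e-05, edgeR). Zfp57, whose protein guards imprinted loci, fell in ES cells (-0.64 ± 0.05) and rose at D7 (1.35 ± 0.08) and D4 (0.54 ± 0.06). Trim28 had 1530, 1373 and 1379 CPM in ES siUbc9, and Setdb1 228, 230 and 227 CPM, and neither was called there. Of 16 SUMO pathway genes, 2 rose and 4 fell in ES cells, 6 rose and 2 fell at D4, 5 rose and 3 fell at D7, and 1 rose and 0 fell in MEF. The shares called are 37.5%, 50%, 50% and 6.25%, against 39.1%, 53.2%, 53.6% and 6.04% of all genes. Senp6, a protease that removes SUMO chains, rose in ES cells (0.72 ± 0.06), and Senp3 fell (-0.72 ± 0.05). Sumo3 rose at D4 (0.59 ± 0.08), at D7 (0.53 ± 0.06) and in MEF (0.27 ± 0.05).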

How the data were processed

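RNA was measured in 28 libraries of 10 groups. The deposited table holds whole-number counts per gene and repeat family, made by the authors; build mm9 and the tools featureCounts, STAR 2.5.0a and DESeq2 come from the submitters' processing notes. No source at hand gives the annotation, the strand setting or the treatment of reads with several matches. Genes were tested without the 799 repeat families, with edgeR 4.0.16 (limma 3.58.1, R 4.3.3): filterByExpr (minimum count 10) set the genes kept, TMM factors scaled the libraries, each comparison was fitted on its own groups, and p-values were adjusted by the Benjamini-Hochberg method over all genes tested, with calls at 0.05. The code was tested on simulated data with known changes. Gene IDs were matched to symbols for 24191 of 26301 genes. Libraries held 11.4 M to 58.8 M gene counts, which sets the precision. No labels state separate cultures, so p-values measure the spread between libraries. Alternatives were DESeq2 1.42.0, other scalings, no filter, a fit on all libraries, the replicate number as a block and each library left out. The genes and lists were chosen with earlier results of these data known. Named genes are those called at 1 CPM or more without overlap between groups, at most 10 in each direction, the most abundant genes, and Zfp932, Zfp961 and Zfp982. The 32 peak lists were not used, since their build has no annotation here. The RNA level of the targeted gene is not reported here.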

Additional observations from a re-analysis of the deposited data

Results flagged for a closer look

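The depletion response of several genes differed between cell states, by the edgeR test of the difference between responses on the log2 scale, adjusted by the Benjamini-Hochberg method over all genes. Between ES cells and fibroblasts the response in ES cells was higher for Zfp994 by 1.49, Zfp947 by 0.93, Zfp958 by 0.84, Zfp946 by 0.83, Zfp944 by 0.65, Zfp983 by 0.65, Zfp991 by 0.61, Zfp974 by 0.58, Zfp954 by 0.55 and Zfp949 by 0.49. It was lower for Zfp941 (-0.58) and Zfp940 (-0.43). The depleting reagents differed between these cells, so reagent and cell state cannot be told apart.

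Between D7 and D4 the response at D7 was higher for Zfp961 by 0.95, Zfp934 by 0.59 and Zfp971 by 0.44, and lower for Zfp937 (-0.48).

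Between ES cells and D7 the response in ES cells was higher for Zfp994 by 1.06, Zfp974 by 0.81, Zfp964 by 0.75, Zfp946 by 0.70, Zfp949 by 0.67, Zfp983 by 0.60, Zfp937 by 0.48, Zfp963 by 0.47, Zfp970 by 0.46 and Zfp950 by 0.45. It was lower for Zfp985 (-1.70), Zfp961 (-1.20), Zfp930 (-1.14), Zfp941 (-1.11), Zfp960 (-1.07), Zfp951 (-0.92), Zfp940 (-0.89), Zfp934 (-0.80), Zfp977 (-0.72) and Zfp971 (-0.50). Zfp985 had under 1 CPM in every D7 shCtrl library. The reagents differed here as well.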

How the results depend on the processing

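For 145 differences of named genes, 0 reversed direction under any alternative. They were picked as called, and between 2 groups as not overlapping, so a reversal was unlikely from the start. Of 2029 alternatives with a value, 266 lost the call, 94 of them with 1 library left out. Pooling the spread over all 28 libraries ended 93 of the 145 calls. In that fit the number of genes called was 0 at D4, 2 at D7 and 2 in ES cells for Ubc9 depletion, 1 for D4 over MEF and 0 for D7 over D4, and 0, 0 and 2 for the ES-MEF, D7-D4 and ES-D7 differences between responses. Leaving iPS shUbc9 replicate 2 out of it, an alternative chosen after seeing the data, gave 12 in ES cells, 13 for D4 over MEF, 1 for D7 over D4, and 6 and 1 for the ES-MEF and D7-D4 differences. DESeq2 called 1 for D7 over D4.

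Leaving out 1 library at a time gave 0 to 2 genes for MEF depletion (2 without MEF shCtrl replicate 2), 21 to 26 at D4, 10 to 26 at D7 (10 without D7 shCtrl replicate 1, 13 without D7 shUbc9 replicate 3) and 23 to 32 in ES cells. It gave 45 to 47 for ES over MEF, 16 to 22 for D4 over MEF, 0 to 4 for D7 over D4, 32 to 39 for iPS over D7 and 32 to 42 for iPS over ES. The differences between responses gave 10 to 19 (ES-MEF), 3 to 5 (D7-D4) and 20 to 24 (ES-D7).

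Replicate numbers are shared between groups, but nothing in the labels ties them to a shared culture, and in no comparison with 3 pairs did every same-numbered pair correlate by more than 0.1, so the numbers are not taken as pairs (correlations from -0.42 to 0.27; for D4 over MEF 0.08 to 0.25, with 3 of 3 libraries closest to their own number). With the replicate block the counts were 3 for MEF depletion, 15 at D7 and 5 for D7 over D4, and the other counts stayed within 1.5 times.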

Other observations

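The 332 other Zfp-numbered genes give a measure of how far the series' directions are shared. Under Ubc9 depletion 87 of 316 tested rose and 75 fell at D4, 68 of 317 rose and 76 fell at D7, and 99 of 317 rose and 49 fell in ES cells, with median log2 fold changes of 0.04, -0.05 and 0.06. At D4 this is 27.5% and 23.7%, against 27.2% and 26.1% of all genes. At D7 it is 21.5% and 24%, against 27.3% and 26.3%, and in ES cells 31.2% and 15.5%, against 21.3% and 17.8%. Between ES siCtrl and MEF shCtrl 176 of 318 were higher and 112 lower (55.3% and 35.2%, against 47.7% and 42.8% of all genes), with a median of 0.33. Between iPS shCtrl and ES siCtrl 42 of 319 were higher and 139 lower (13.2% and 43.6%, against 27.3% and 26% of all genes). These lists share libraries with the series, and no test between them was made.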
